A study of Mus musculus with 4 samples.

Results

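Binding of tyrosine-phosphorylated STAT3 (pSTAT3) was examined at the genes that encode the proteins of the cytosolic ribosome. The genes were taken by name from the authors' table of reproducible regions: names that begin with Rpl or Rps and a digit, and Rpsa, Rplp0, Rplp1 and Rplp2, without the S6 kinases, pseudogenes and numbered like-genes. This gave 58 of the 15256 gene names in that table, and 88 of its 12925 regions were listed with at least 1 of them. The table's description begins with the words ribosomal protein for all 58. Of these genes, 53 encode core ribosomal proteins, and the other 5 are the paralogues Rpl10l, Rpl36al, Rpl3l and Rps27l and the gene Rps19bp1, which encodes a protein that binds Rps19. A gene is named in the table only if a region lies near it, so counts are given over the 77 core genes of a RefSeq gene table, 24 of which the region table does not name.

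The cells were oligodendrocyte progenitors, dividing precursors of the cells that make myelin, taken in primary culture from the cortex of C57BL/6 mice. They were grown with bFGF at 20 ng/ml and PDGF-AA at 10 ng/ml, and then exposed to CNTF, a cytokine of the interleukin-6 family, at 100 ng/ml for 15 min. Both ChIP libraries, replicates 1 and 2, were made with an antibody to the tyrosine-phosphorylated form. The 2 input libraries carry the same treatment and were not analysed here. Cell lysates were pooled before the immunoprecipitation and nothing says that the replicates came from separate cultures, so their spread may be technical. Untreated cells were not analysed here, and a region therefore shows where pSTAT3 was found after CNTF, not where it was gained. The peak lists do not measure RNA, so neither the cell type nor the activity of the genes was checked against expression.

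STAT3 is phosphorylated by JAK kinases at cytokine receptors, pairs with another STAT molecule, enters the nucleus and binds palindromes of the form TTCNNNGAA. Each ribosome has a small and a large subunit, and each subunit is built from ribosomal RNA and a fixed set of proteins encoded by single genes spread over the chromosomes. These genes are among the most strongly transcribed in dividing cells, start within short pyrimidine tracts, and have promoters that often carry ETS-type elements and GC boxes.

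The sequences of 4 promoters are shown because their regions lay among the 6 strongest at ribosomal protein gene starts. They were also chosen to cover, as a set, a STAT palindrome, an ETS-type match alone (Rps25 and Rpl27a alike) and neither. Each runs 5′ to 3′ from 220 bases before a RefSeq start (GRCm38.p6) to 20 bases from it. Capitals mark matches to the STAT palindrome TTCNNNGAA and to the ETS-type motifs CCGGAAG and CTTCCG on either strand, the last of which is contained in the reverse complement of the other.
Rpl22, chr4:152325506-152325745, plus strand: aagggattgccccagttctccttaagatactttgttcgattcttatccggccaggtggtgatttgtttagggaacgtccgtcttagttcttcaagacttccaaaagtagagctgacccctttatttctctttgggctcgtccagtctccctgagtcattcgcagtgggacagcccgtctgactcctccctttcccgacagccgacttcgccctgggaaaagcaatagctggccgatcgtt
Rpl35, chr2:39005112-39005351, minus strand: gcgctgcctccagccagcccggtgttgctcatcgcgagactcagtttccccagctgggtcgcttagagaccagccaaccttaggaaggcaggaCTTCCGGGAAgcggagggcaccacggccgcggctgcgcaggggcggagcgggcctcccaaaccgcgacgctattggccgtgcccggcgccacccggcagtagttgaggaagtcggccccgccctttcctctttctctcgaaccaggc
Rps25, chr9:44407494-44407733, plus strand: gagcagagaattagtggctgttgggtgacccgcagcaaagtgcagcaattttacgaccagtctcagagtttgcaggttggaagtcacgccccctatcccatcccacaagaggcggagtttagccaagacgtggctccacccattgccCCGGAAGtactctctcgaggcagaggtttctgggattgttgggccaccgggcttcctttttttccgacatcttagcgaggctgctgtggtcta
Rpl27a, chr7:109518975-109519214, plus strand: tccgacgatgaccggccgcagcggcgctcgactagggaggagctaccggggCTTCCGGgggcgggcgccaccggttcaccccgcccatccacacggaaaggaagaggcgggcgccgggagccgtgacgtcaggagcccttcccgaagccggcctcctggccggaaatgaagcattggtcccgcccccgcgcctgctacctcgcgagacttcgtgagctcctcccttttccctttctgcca
The Rpl22 stretch holds none of these motifs. In Rpl35 the palindrome TTCCGGGAA lies at chr2:39005249-39005257, 126 to 118 bases before the RefSeq start, and overlaps the CTTCCG match. Rps25 and Rpl27a hold an ETS-type match and no STAT palindrome.

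Reproducible regions lay at the starts of 23 of the 77 core genes (29.9%), counted when the midpoint was within 1 kb of a listed Ensembl start. Over all 21887 protein-coding genes the share was 12.8%. With Rpl36al, 24 of the 58 genes had such a region, and each of the 24 regions covered a listed start. Large-subunit genes had 14 of 46 (30.4%) and small-subunit genes 9 of 31 (29%), so the subunits had like shares. The median fold over local background was 8.64 in replicate 1 and 5.95 in replicate 2, with ranges of 3.11 to 30.3 and 2.99 to 32.1. The 3068 other regions within 1 kb of a start had medians of 10.5 and 7.67. The top 10% of start regions held 2 of the 24 (8.33%), those of Rpl22 and Rps10, and began at a lower-of-both fold of 18.7. Both replicates were under 10-fold in 13 of the 24 (54.2%) and in 45.5% of the other start regions. No test was made, since both libraries are of 1 condition and genes or regions are not replicates.

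**Figure D1:**
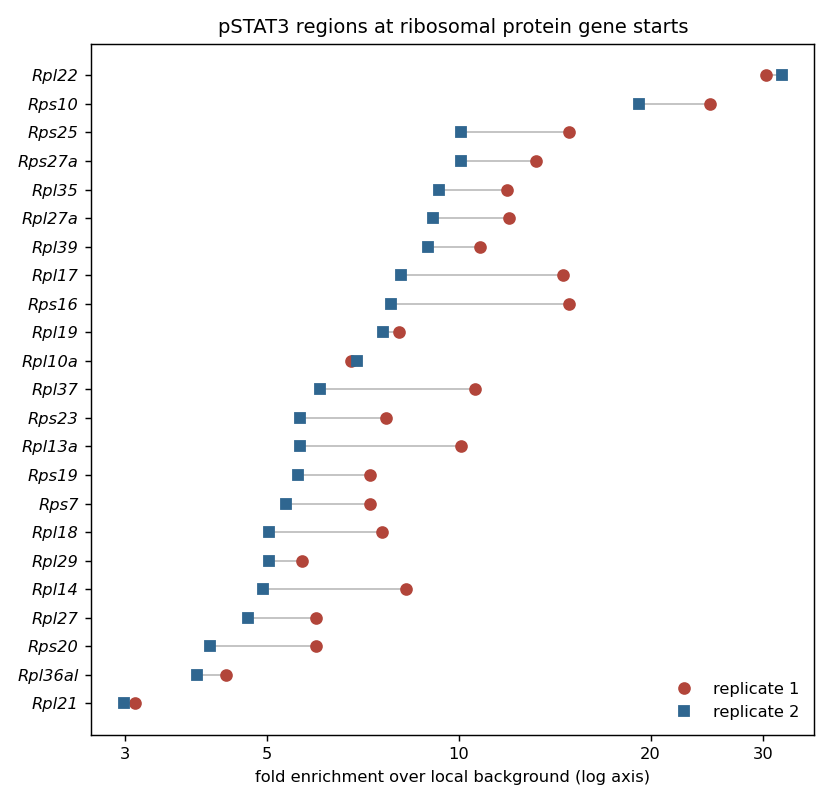
Fold enrichment over local background (log axis) of the reproducible pSTAT3 region within 1 kb of a start, for 23 of the 24 ribosomal protein genes in order of the lower value; circles are replicate 1, squares replicate 2, and a line joins them. Rpl22 and Rps10 stand above the others, and replicate 1 is higher for each gene plotted but Rpl22 and Rpl10a.

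Rpl22 had the highest signal of the 24 genes. It encodes a large-subunit protein that bulk protein synthesis can do without but that mouse T cell development needs. The region covered chr4:152325332-152326010 (GRCm38) with 301 fragments stacked at the summit in replicate 1 and 223 in replicate 2, and its fold enrichment was 30.3 and 32.1. It ranked number 72 of 3092 start regions and 262 of all 12925 by the lower fold. The summits lay 0 and 10 bp upstream of an Ensembl start, and 16 and 6 bp downstream of the RefSeq start in the sequence above. Local background at Rpl22 came to 8.98 and 5.97 fragments, above the lowest values in the peak lists, 4.72 and 2.91. Both libraries therefore placed the summit at the start itself, in a stretch where the letters TTCNNNGAA were not found. That stretch ends at chr4:152325745, just past both summits, while the region runs on to 152326010. Sequence of the region outside the promoter windows searched was not read, so a palindrome there was not tested for.

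Rps10, a small-subunit gene mutated in human Diamond-Blackfan anaemia, was next. Its region at chr17:27636565-27637295 had 141 fragments in replicate 1 and 74 in replicate 2, at 24.8-fold and 19.2-fold, with the background at its lowest value in both. This region is 301 bp upstream of 1 listed start only. The next of the 7 listed starts was 1654 bp away and the RefSeq start 1686 bp away, at which replicate 1 had a peak of 4.55-fold with 25 fragments and replicate 2 had none. Rps10 thus had a start region through 1 of its 7 listed starts.

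Rps27a, which encodes ubiquitin fused to a small-subunit protein, had 131 and 64 fragments and 13.2-fold and 10.1-fold enrichment. Rps25, whose small-subunit protein is needed for initiation at some viral internal ribosome entry sites, had 109 and 53 fragments and 14.9-fold and 10.1-fold. Both regions lie near the start of a second gene. The Rps27a region has the start of Clhc1 within 1 kb. That of Rps25 has its midpoint 351 bp upstream of Rps25 and 185 bp downstream of the start of Trappc4, the nearer one. The summits, 377 and 402 bp upstream, fall outside the Rps25 stretch printed above, so that sequence is the gene's start and not the peak's centre. Rpl18 (with Sphk2) and Rpl36al (with Mgat2) were the other regions shared with a protein-coding start within 1 kb.

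Rpl35, whose protein sits at the exit of the peptide tunnel, had 127 fragments in replicate 1 and 59 in replicate 2, and folds of 11.9 and 9.33. Its summits were 134 and 140 bp upstream of the RefSeq start, 12 and 18 bp from the centre of the palindrome TTCCGGGAA. Among core genes with a region this was the only promoter window that held TTCNNNGAA. Rpl27a, a large-subunit gene, had 73 and 38 fragments and 12-fold and 9.11-fold enrichment, with summits 95 and 90 bp upstream of the RefSeq start. Rpl39, whose small protein lines the peptide tunnel, had 61 and 34 fragments at 10.8-fold and 8.96-fold. Both libraries had the lowest background at Rpl39.

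Next in order of the lower fold came Rpl17, Rps16 and Rpl19. Rpl17, another tunnel protein, had 109 fragments in replicate 1 and 38 in replicate 2, at 14.6-fold and 8.12-fold. Rps16, whose tail reaches the tRNA in the small subunit, had 85 and 30 fragments at 14.9-fold and 7.84-fold. These genes differed more between the libraries than Rpl19, a bridge between the subunits, which had 73 and 48 fragments at 8.07-fold and 7.62-fold. Rpl10a, which forms the stalk beside the tRNA exit site, had 40 and 27 fragments at 6.77-fold and 6.94-fold. Rpl10a and Rpl22 were the 2 genes at which replicate 2 was higher.

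Rpl37 (10.6-fold and 6.06-fold) and Rps23 (7.7 and 5.64), whose protein guards decoding accuracy, were weaker. Further down, Rpl13a had 10.1-fold and 5.63-fold enrichment, and its human counterpart represses translation of inflammatory transcripts after interferon-gamma. Rps19, the gene most often mutated in human Diamond-Blackfan anaemia, had 42 and 22 fragments at 7.26-fold and 5.59-fold. Rps7, Rpl18, Rpl29, Rpl14, Rpl27, Rps20 and Rpl36al lay between 4.31-fold and 8.27-fold in replicate 1 and between 3.89-fold and 5.37-fold in replicate 2. Rpl21 was the weakest, with 22 and 15 fragments at 3.11-fold and 2.99-fold.

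Most of the regions lay close to the start. Midpoints lay 351 bp upstream to 218 bp downstream of the nearest start of the gene, with a median offset of -45.5 bp, negative being upstream, against -16 bp at other genes. Of 24 midpoints, 20 (83.3%) were within 200 bp of the start, against 1818 of 3068 (59.3%) at the other genes, a difference that was not tested. By midpoint, 18 lay upstream, 5 downstream and 1 at the start, and the share upstream at other genes was not counted. Offsets run to the nearest of the listed starts of a gene, 10 at Rps19. The number of starts per gene was not taken into account. The strongest peak's summit had a median offset of -75 bp in replicate 1 and -78.5 bp in replicate 2, and the summits of the libraries lay a median of 23.5 bp apart, against 19 bp at other starts. The median width was 592 bp at ribosomal protein genes and 570 bp at other starts. By the nearest listed start of each gene, the farthest midpoint inside the window of 1 kb was that of Rps25 at 351 bp. The nearest outside were those of Rpl7a at 1085 bp and Rpl23 at 1373 bp. With any base of the region counted, 25 genes were within 1 kb.

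The local background was higher at these starts. It can be derived from pileup and fold, and its median was 5.79 fragments in replicate 1 and 3.58 in replicate 2 at the 24 ribosomal regions, and 5.19 and 3.26 at the 3068 others. A background over 1% above the lowest value was found at 21 of 24 ribosomal regions (87.5%) in each replicate, and at 69.9% and 66.3% of the other start regions. The highest was that of Rpl36al in replicate 1, with 10.6 fragments, and that of Rpl22 in replicate 2, with 5.97. Pileup at the ribosomal regions had a median of 58.5 fragments in replicate 1 and 26.5 in replicate 2, against 70 and 33 at other start regions. An IDR, the irreproducible discovery rate, of 0.01 or below was listed for 16 of 24 (66.7%) ribosomal and 79.5% of other start regions. Since fold is taken over this background, its part in the lower folds at ribosomal protein genes was not tested. Whether the background was computed from the input or the ChIP libraries was not examined.

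**Figure D2:**
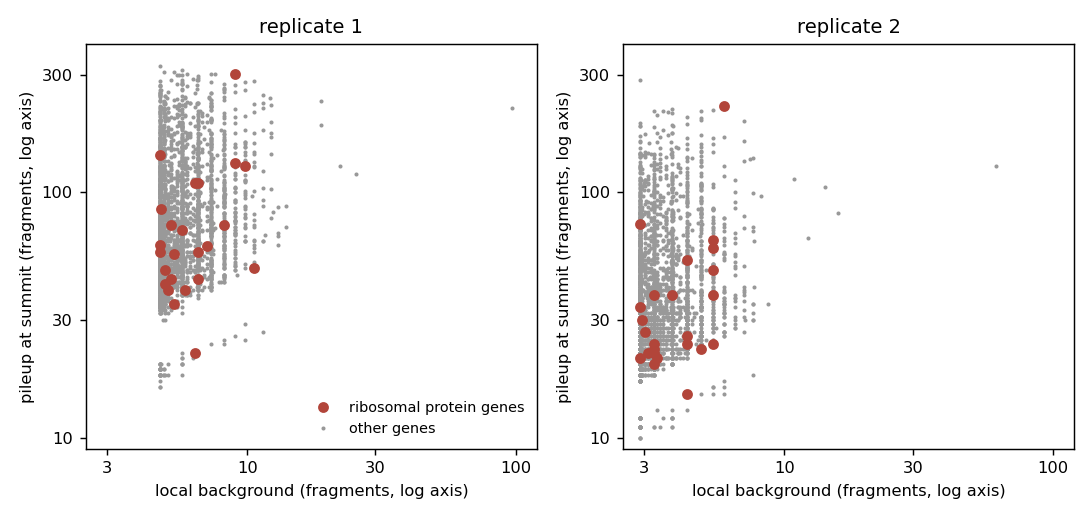
Pileup at the summit against the local background, in fragments on log axes, for regions within 1 kb of a start; large points are the 24 ribosomal protein gene regions, small points the 3068 others, with replicate 1 on the left and replicate 2 on the right. Rpl22 is the highest large point, at 301 and 223 fragments, and the lowest is Rpl21 at 22 and 15.

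The other 34 genes named in the table had no reproducible region within 1 kb. Of these, 9 had a peak at a listed start in both libraries, in each case overlapping, 14 in replicate 1 only, 2 in replicate 2 only and 9 in neither. At RefSeq starts, 22.6% of all 17492 protein-coding genes had a peak in both libraries and 15.2% in replicate 1 only. In replicate 2 only it was 1.11%, and in neither 61.1%. Those shares include genes with a reproducible region and use other starts, so they are not a like measure for the 34 genes. The strongest pairs by the lower fold were Rps3a1 (4.72-fold and 4.61-fold), Rps15a (4.26 and 5.21), Rps18 (4.07 and 4.1, 965 and 966 bp downstream), Rps2 (3.83 and 4.25), Rpl7 (6.82 and 3.76) and Rpl41 (5.44 and 3.74). They had 23 to 40 fragments in replicate 1 and 15 to 24 in replicate 2. Genes with a replicate 1 peak alone included Rpl11 (3.58-fold), a large-subunit gene whose protein binds Mdm2, and Rps14 (3.85-fold). Starts with a peak in neither library included those of Rpl10l, Rpl13, Rpl3l, Rpl7a, Rplp1, Rps24, Rps28 and Rps4x.

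Peaks were also counted at RefSeq starts, which do not depend on a nearby reproducible region. Most core ribosomal protein genes with an entry had a peak in replicate 1, and fewer had one in both libraries. Of the 57 core genes in the promoter table, 43 (75.4%) had a replicate 1 summit within 1 kb and 29 (50.9%) a replicate 2 summit. Over 17492 protein-coding genes of that table the shares were 37.8% and 23.7%. Both libraries had a peak at 28 of 57 (49.1%), against 22.6% of all genes, and 15 (26.3%) had replicate 1 alone, against 15.2%. The strongest peak per gene had a median of 5.06-fold and 5.05-fold at core ribosomal genes and 4.65-fold and 4.86-fold at other protein-coding genes. These genes thus had a start peak more often than genes at large, with strengths close to those of other start peaks.

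Among the 24 core genes that the region table does not name, 18 have a RefSeq promoter entry, and 6 of them had a peak in both libraries. Rpl5, which binds Mdm2 together with Rpl11, had 6.01-fold enrichment in replicate 1 and 3.76-fold in replicate 2 at its start. Rpl6 had 6.87-fold and 3.9-fold, Rps12 5.35-fold and 4.86-fold, and Rpl38, whose protein aids translation of Hox transcripts in the mouse, 5.06-fold and 3.99-fold. Rpl31 and Rps3 were the others. Rps6, the substrate that gives S6 kinase its name, had a peak of 2.71-fold in replicate 1 and none in replicate 2. Neither library had one at Rplp0, the base of the stalk that recruits elongation factors.

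**Figure D3:**
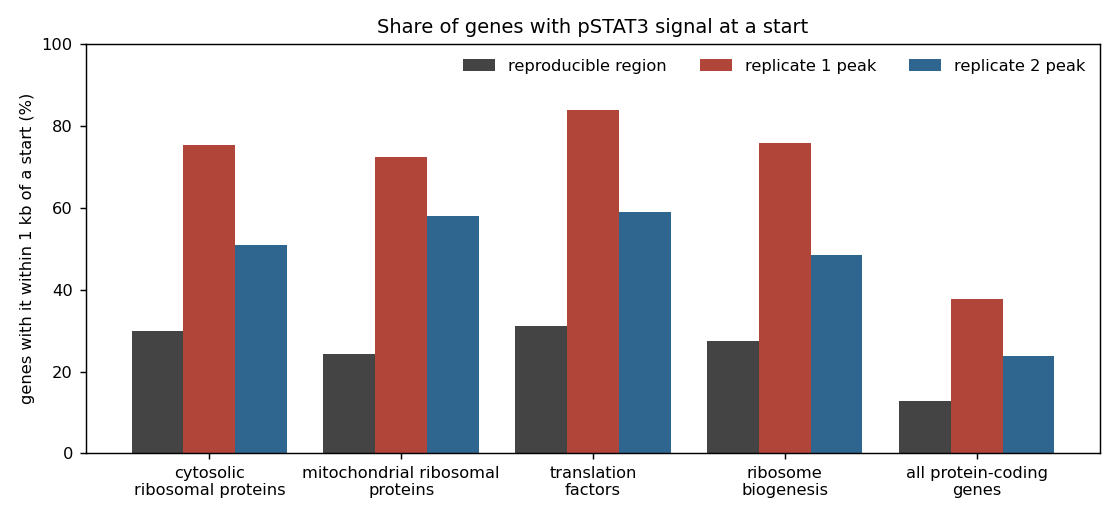
Percentage of genes with a reproducible region (dark bars), a replicate 1 peak or a replicate 2 peak within 1 kb of a start, for 4 gene lists and for all protein-coding genes; peaks are counted over genes with a RefSeq promoter entry. Cytosolic ribosomal protein genes have 29.9%, 75.4% and 50.9%, and all protein-coding genes 12.8%, 37.8% and 23.7%.

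Other genes of protein synthesis had like shares. Mitochondrial ribosomal protein genes, which serve the separate ribosome of mitochondria, had a region within 1 kb of a start at 19 of 78 (24.4%), with medians of 10.1-fold and 7.45-fold. Mrpl52 (29.9-fold and 27.1-fold), Mrpl30 (28.7 and 25.1) and Mrpl39 (20.4 and 13.4) were strongest. Translation factor genes had 23 of 74 (31.1%) with medians of 12.8-fold and 8.83-fold, led by the initiation factor genes Eif1a (28.5 and 26.6) and Eif3k (27.7 and 20.6) and by Eef2k (27.3 and 20.4), the kinase that inhibits elongation factor 2. Ribosome biogenesis genes had 11 of 40 (27.5%) with medians of 10-fold and 7.17-fold, led by Rrp9 (25.9 and 21.9), Nop58 (23.6 and 19.6) and Rrn3 (18.9 and 16.9), an initiation factor of RNA polymerase I. Cytosolic ribosomal protein genes had the lowest median folds of these 4 lists, at 9.01 and 6.06 over the 23 core regions, and no difference between lists was tested.

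On a list of S6 kinase and mTOR signalling genes chosen by symbol, 1 of 20 (5%) had a region within 1 kb of a start. All protein-coding genes had 12.8%. That gene was Rps6ka4 (7.17-fold and 5.12-fold). Of the 17 genes on this list with a RefSeq entry, 82.4% had a replicate 1 peak, 47.1% a replicate 2 peak and 41.2% both, where 22.6% of all genes had both. Of the ribosomal protein genes named otherwise, Rack1, a scaffold on the small subunit, was enriched 12.5-fold and 7.89-fold in a region whose midpoint lay 38 bp upstream. Fau had none within 1 kb.

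Beyond 1 kb, regions near ribosomal protein genes mostly lay nearer to another gene. Of 67 pairs of a gene and a listed region over 1 kb from its starts, 52 had the nearest start at another gene. The share of such pairs over other genes was not counted. The 64 distinct regions that were not also start regions of a ribosomal protein gene had a median of 12.7-fold and 9.47-fold. The ribosomal start regions had 8.64 and 5.95, and all 12925 regions had 10.4 and 7.51. The strongest by the lower fold was listed 18 kb upstream of Rpl13a with 40.9-fold and 39.8-fold, and its midpoint was 42 bp upstream of Pih1d1. A region 2475 bp upstream of Rps28 (42.3-fold and 38.7-fold, chr17:33826841-33827234) was nearest to Ndufa7, and that 19.5 kb upstream of Rps26 (41.6 and 37.1) was 2 bp from the start of Ikzf4. Those near Rpl23 (23.9 and 18.8) and Rpl27a (24.3 and 16.9) were nearest to Lasp1 and Trim66. Rps28 itself had no peak at its starts in either library.

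Rps24 was the exception among the 6 strongest regions between 1 and 25 kb. Its region at chr14:24500550-24501214 had 28.5-fold and 26.5-fold enrichment, 10.2 kb downstream of the only listed Rps24 start with no other listed start nearer. A weaker one, 5.76-fold and 4.4-fold, lay beside it, and another of 22.6-fold and 18.3-fold lay 60541 bp downstream. No peak of either library lay within 1 kb of that start. Rpl13 was alike in a smaller measure, with a region 4837 bp upstream (16.8-fold and 12.9-fold) nearest to its own start. Rplp1, which encodes a protein of the stalk that recruits elongation factors, had 5 regions, all nearest to its own start at 24540 to 122940 bp downstream, the strongest of 16.9-fold and 11.4-fold. The region at the start of Rpl36al is also listed 24.8 kb upstream of Rps29.

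**Figure D4:**
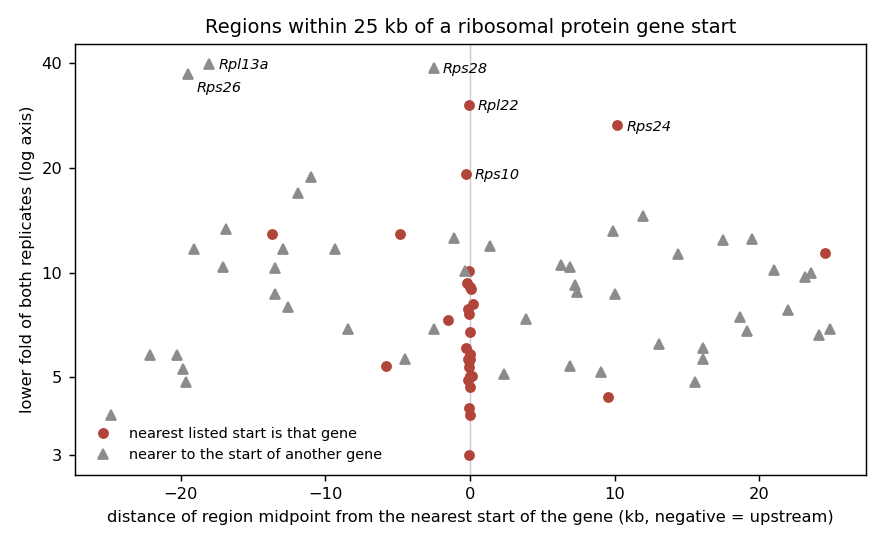
Lower fold enrichment of both replicates (log axis) of each region listed within 25 kb of a ribosomal protein gene start, against the distance of its midpoint from the nearest start of that gene in kb, negative being upstream; circles are regions with that gene's start nearest, triangles those nearer to another gene. Start regions gather at 0 and below 11-fold except Rpl22 and Rps10, and the triangles over 30-fold are those listed with Rpl13a, Rps26 and Rps28.

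STAT palindromes were counted in the promoter windows from 250 bases before to 50 after a RefSeq start. The windows, 67 in all, cover 57 of the 77 core genes. TTCNNNGAA occurred in 3 windows (4.48%), those of Rpl35, Rpl4 and Rplp0, and in 8.3% of all 32851 windows. Rpl4 and Rplp0 had no peak at the start in either library. Of 22 windows of genes with a reproducible start region, 1 held the palindrome, and of the 45 windows of the other core genes, 2 did. The paralogue Rpl36al held TTCTCAGAA in its window, 131 and 96 bp from the summits of its weak region. The wider form, with 4 bases between TTC and GAA, was in 5 windows (7.46%, against 6.95% of all), at Rpl13, Rpl28, Rpl35, Rps26 and Rps3. The stricter TTCCNGGAA was in 1 window (1.49%, against 1.15% of all). These counts are small, and no share was tested against that of all windows. A match or its lack in so short a window says nothing of the rest of a region, and sequence outside it was not used here.

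Of the other motifs, searched on both strands, all but TGANTCA were in a larger share of these windows than of all windows. The ETS-type motif CTTCCG was in 42 of 67 windows (62.7%) against 16.9% of all windows, and CCGGAAG in 25 (37.3%) against 8.86%. The GC box GGGCGG was in 41 (61.2%) against 35.7%. By region, CTTCCG was in 9 of 22 windows (40.9%) of genes with a start region and 33 of 45 (73.3%) of those without, while GGGCGG was in 15 of 22 (68.2%) and 26 of 45 (57.8%). CCGGAAG was in 36.4% of windows of genes with a start region and 37.8% of windows of genes without. The E-box CACGTG was in 8 of 67 (11.9%, against 7.15%), the element AAGATGGC in 7 (10.4%, against 2.75%) and the AP-1 motif TGANTCA in 2 (2.99%, against 7.81%), those of Rpl22 and Rpl9. In windows of genes with and without a start region, CACGTG was in 5 of 22 (22.7%) and 3 of 45 (6.67%). AAGATGGC was in 2 of 22 (9.09%) and 5 of 45 (11.1%), and TGANTCA in 1 of 22 (4.55%) and 1 of 45 (2.22%). The split is by gene, so a window of a gene with a start region need not hold that region. The Rps10 region, for one, lay 1686 bp from the RefSeq start. Several windows belong to the same gene, so they are not independent, and no difference was tested.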

How the data were processed

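Per the submitters' processing notes, CASAVA 1.8, Bowtie2 and MACS2 were used on GRCm38.p3; options and read totals are not given in the sources used here. The deposited files are a peak list for each ChIP library and a table of reproducible regions with Ensembl transcripts. Per the file headers, the pileup signal is the fragments stacked at a summit, and the fold is the ratio over local background. Columns with damaged headers in the deposited lists hold -log10 p and q by place and value. The deposited table lists the IDR, at most 0.05, under an adjusted p-value heading, and the column headed fold enrichment holds the mean -log10 p in 12924 of 12925 regions.

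On chromosomes 1 to 19, X and Y, replicate 1 had 42131 peaks and replicate 2 had 26537. The lowest local background, the measure of depth in the lists, was 4.72 and 2.91 fragments. Each region took its strongest overlapping peak (at least 1 bp) per library, and distances run from its midpoint to the listed starts. Local background was computed as (pileup + 1) / fold - 1. With it, a Poisson tail gave the listed -log10 p within 0.1% for 99.6% of replicate 1 peaks. Promoter sequences are from RefSeq (GRCm38.p6), where 57 of 77 core genes have an entry. Positions are 1-based. Python 3.11.15, pandas 2.3.3, numpy 2.4.6, scipy 1.17.1 and matplotlib 3.10.9 were used, and the steps were tested on simulated data.

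The genes, lists and named-gene rule (every start region accounted for, the 14 strongest in full, the 6 strongest within 25 kb, up to 6 weak pairs and 3 genes per list) were chosen with earlier results of these data known. Every other gene named with a value, such as Rpl11, Rpl13, Rplp1 and Rpl5, falls outside that rule and was chosen after its values were seen. Values of some single genes are not reported here. No p-values were computed: there are 2 libraries of 1 condition. Alternatives were other windows, starts, thresholds, peak choices, motifs and each replicate alone.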

Additional observations from a re-analysis of the deposited data

How the results depend on the processing

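The count of 24 genes with a start region stayed within 1.5 times under 7 alternatives that kept both replicates, among them 16 at an IDR of 0.01 or below, 25 with any base of the region counted, 31 within 5 kb and 23 where the gene's start had to be the nearest. It was 54 within 25 kb and 13 with a -log10 q of at least 10 in both replicates. A gene is named only if a region lies near it, so the count within 25 kb is high by construction. Over the 77 core genes the shares were 39% within 5 kb and 64.9% within 25 kb. Over all protein-coding genes they were 18.1% and 34.4%. With the peaks of a single replicate the count was 35 to 47, the higher value with replicate 1 alone. By RefSeq starts it was 17 of the 44 genes with an entry, where the listed starts gave 18. The median fold of start regions was 11.4 and 7.98 at an IDR of 0.01 or below, and 5.06 for all replicate 1 peaks near a start. In place of 3 promoter windows with TTCNNNGAA, 1 held TTCCNGGAA and 5 held the form with 4 bases between TTC and GAA. Fewer regions or peaks enter by construction under the stricter settings; no other cause was tested. No paired analysis was possible because the input libraries were not analysed here and both ChIP libraries belong to 1 group. Read totals are not known, and replicate 2, with the lower background, can show fewer weak peaks.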
